A study of Mus musculus with 24 samples.

Results

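The 10 genes described here encode chaperones that are named for their response to heat. Hsp90aa1, Hsp90ab1, Hspa8 and Hsph1 encode proteins of the cytosol, Hspd1, Hspe1 and Hspa9 encode proteins of mitochondria, and Hspa1a, Hspa1b and Dnajb1 encode the stress-induced members. They were chosen by name, and all 10 were found by symbol among the 55335 genes of the deposited table. They were measured by RNA sequencing of iNKT (invariant natural killer T) cells, whose receptor recognises lipids presented by CD1d. The cells were sorted from mesenteric lymph nodes (mLN) of C57BL/6J mice. The mice were the offspring of dams given a fecal transplant (FT) from wild-type donors (WT FT) or from CD1d-knockout donors (KO FT). Mice of both kinds were gavaged with 2 µg alpha-galactosylceramide (aGC), a glycolipid that iNKT cells recognise on CD1d, in 200 µL PBS, or with 200 µL PBS alone, and cells were taken 24 h later. Females and males were kept apart, which gave 8 groups of 3 libraries: WT FT and KO FT, each after PBS and after aGC, each in females and in males. The labels give the knockout for the donors of the transplant, not for the mice whose cells were sequenced, so no library has a targeted gene to check. The sources used here give neither ages, nor the sort gate, nor the number of mice behind a library. They do not say whether libraries of the same group are different mice, so p-values on 24 libraries describe their own spread, which can be technical. Dam, litter and cage go with the transplant and cannot be told apart from it.

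Chaperones bind unfolded stretches of other proteins and help them to fold or to reach their compartment. HSP70 proteins (encoded by Hspa8, Hspa1a, Hspa1b and, in mitochondria, Hspa9) work in cycles of ATP use that J-domain proteins such as the product of Dnajb1 start and HSP110 (Hsph1) helps to reset. HSP90 (Hsp90aa1, Hsp90ab1) finishes the folding of kinases and steroid receptors, and HSP60 (Hspd1) forms a chamber in mitochondria that HSP10 (Hspe1) closes. Hspa8 and Hsp90ab1 are made in nearly all cells at rest, whereas Hspa1a, Hspa1b and Dnajb1 are the classic targets of heat shock factor 1 (HSF1) under protein-damaging stress. Activated T cells are known to enlarge their protein-making and folding machinery as they grow and divide.

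The libraries held 9764931 to 37016768 estimated counts. Levels are given as CPM, counts scaled to the library size after TMM adjustment. A gene at 0 counts could still hold up to 3 counts, or 0.081 to 0.307 CPM depending on the library, a limit for counting error only. No library was a copy of another: the chi-square per degree of freedom between libraries of a group was 4.01 to 16.5 in 24 pairs. The defining iNKT segments Trav11 and Traj18 were present in every group, at means of 336 to 848 and 48.3 to 114 CPM. Markers of other cells moved between groups. The CD8 co-receptor genes Cd8a and Cd8b1, 2 of 2 measured, summed to 393 to 863 CPM in the males given PBS and the females given aGC, in both FTs, and to 14.1 to 19.8 CPM in the other 4 groups. The same groups were high in 4 naive T cell genes (Ccr7, Lef1, Dapl1, Igfbp4), at sums of 851 to 1566 CPM against 446 to 588 in the others. All 4 rose after aGC in females and fell in males, in both FTs. Of all tested genes 28.6% rose in WT FT females and 27.7% in KO FT females, and 34.9% fell in WT FT males and 26.7% in KO FT males. The 7 genes of the iNKT and T cell list summed to 5253 to 7005 CPM after PBS and 3869 to 4642 CPM after aGC. After aGC 7 of 7 fell in WT FT females (29.8% of all genes fell), WT FT males (34.9%) and KO FT females (28.3%), and 5 of 7 in KO FT males (26.7%). B cell genes (4) summed to 4.93 to 20.4 CPM, myeloid genes (5) to 2.10 to 66.1, epithelial genes (3) to 2.94 to 12.2, stromal genes (3) to 0.044 to 3.27 and red cell genes (3) to 0 to 2.88. Within an FT, PBS stood at the low CD8 level and aGC at the high level in females, and the reverse in males. The labelled sex was matched in all 24 libraries: Xist stayed between 0 and 0.646 CPM in males and between 8.76 and 48.3 CPM in females, and the Y-linked Ddx3y between 41.2 and 78.6 CPM in males and between 0 and 0.471 CPM in females. Whether treatment labels were exchanged between libraries was not tested.

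Promoter windows from RefSeq (GRCm38.p6, 250 bases before to 50 after a transcript start) were at hand for 6 of the 10 genes: Hspd1, Hspe1, Hsph1, Dnajb1, Hspa1b and Hspa1a. They were searched on both strands for heat shock element letters, GAANNTTC or TTCNNGAA, where N is any base, and for the longer GAANNTTCNNGAA or TTCNNGAANNTTC, which contain the shorter form. The short form lay in 4946 of 32851 promoter windows of all genes (15.1%) and the long form in 198 (0.603%). Of the 6 genes, 5 had a window with the short form and 3 of those (Hspd1, Hspe1 and Hsph1) also the long form, while the windows of Dnajb1 held neither. A match is a description of letters and no measure of binding. The following windows are shown because Hspe1 shares its window with Hspd1, with which it is compared, and because the near-identical windows of Hspa1a and Hspa1b stand beside transcripts that share much of their sequence. Capitals mark the matching letters, and each sequence is written 5′ to 3′ on the strand of the gene.
Hspe1 (chr1:55087898-55088197, plus strand): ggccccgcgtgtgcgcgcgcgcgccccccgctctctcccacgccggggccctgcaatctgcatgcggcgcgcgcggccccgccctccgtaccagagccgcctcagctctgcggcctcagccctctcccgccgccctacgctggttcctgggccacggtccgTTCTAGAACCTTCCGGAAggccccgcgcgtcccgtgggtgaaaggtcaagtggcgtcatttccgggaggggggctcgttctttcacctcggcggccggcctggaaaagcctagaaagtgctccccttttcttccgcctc
Hsph1 (chr5:149636266-149636565, minus strand): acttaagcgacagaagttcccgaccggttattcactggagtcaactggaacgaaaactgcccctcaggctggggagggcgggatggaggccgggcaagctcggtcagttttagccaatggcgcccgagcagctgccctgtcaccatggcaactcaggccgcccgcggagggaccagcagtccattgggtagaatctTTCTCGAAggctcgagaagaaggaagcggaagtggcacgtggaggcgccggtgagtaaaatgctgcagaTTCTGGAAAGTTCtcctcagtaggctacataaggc
Hspa1a (chr17:34972107-34972406, minus strand): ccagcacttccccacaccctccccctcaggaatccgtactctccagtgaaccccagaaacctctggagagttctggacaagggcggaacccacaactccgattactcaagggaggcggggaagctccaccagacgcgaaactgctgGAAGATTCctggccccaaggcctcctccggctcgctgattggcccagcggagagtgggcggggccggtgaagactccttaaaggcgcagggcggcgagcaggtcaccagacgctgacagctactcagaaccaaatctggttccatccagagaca
Hspa1b (chr17:34959189-34959488, minus strand): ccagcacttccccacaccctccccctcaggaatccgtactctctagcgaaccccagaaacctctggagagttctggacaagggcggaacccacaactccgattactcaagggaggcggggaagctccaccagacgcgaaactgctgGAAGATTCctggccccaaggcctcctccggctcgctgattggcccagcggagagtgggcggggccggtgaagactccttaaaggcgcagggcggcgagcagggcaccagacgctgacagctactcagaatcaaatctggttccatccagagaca
The match in Hspe1 began 89 bases before the start. The window of Hspe1 overlapped that of the divergent gene Hspd1 by 285 bases, so both genes hold the same match, read from opposite strands. In the window shown, Hsph1 had a short match 54 bases before the start and a long match from position 16, with the start as 1. Its other window, of another annotated start, placed the same matches 33 bases before the start and from position 37. Hspa1a and Hspa1b held the same match 104 bases before their starts, and 296 of the 300 positions of their windows were identical.

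The 10 genes covered a wide range of levels. On the scale of CPM per kilobase of exon, Hspa8 was the most abundant of them in every group, at means of 570.2 to 1955, followed by Hsp90ab1 at 303 to 1248. Hspd1 (61.7 to 390.2), Hspa9 (51.0 to 167), Hspe1 (24.6 to 206) and Hsp90aa1 (32.5 to 170) overlapped in their ranges of group means. Dnajb1 (30.3 to 50.9) and Hsph1 (12.7 to 46.0) reached lower maxima, although Dnajb1 lay above Hspe1 in males after PBS (36.7 against 32.1 in WT FT and 34.3 against 24.6 in KO FT). Hspa1b stood at 0.350 to 5.36 and Hspa1a at 0 to 0.657 CPM per kilobase, so these iNKT cells held little RNA of the inducible HSP70 genes in any group. All 10 passed the filter on low counts, which kept 15953 genes.

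The cytosolic HSP90 and HSP70 genes were higher after aGC in both FTs and both sexes. Hsp90ab1, the constitutive HSP90 beta gene (ENSMUSG00000023944.14, GRCm38 chromosome 17, 45567775 to 45573271, minus strand), stood after PBS at 1196, 1165 and 1160 CPM in WT FT females and at 1068, 1034 and 1029 CPM in WT FT males. After aGC the libraries gave 3227, 3290 and 3359 CPM in WT FT females and 3622, 4012 and 3597 CPM in WT FT males. Every aGC library of WT FT thus lay far above every PBS library. In KO FT, Hsp90ab1 stood after PBS at 888, 886 and 953 CPM in females and at 936, 966 and 944 CPM in males. After aGC it stood at 2876, 2906 and 2920 CPM in females and at 2715, 2464 and 2748 CPM in males, again without overlap. Averaged over the sexes, Hsp90ab1 rose by 1.67 ± 0.03 on the log2 scale (SE) in WT FT (3.17-fold, edgeR adjusted p = 2.41e-22) and by 1.58 ± 0.03 in KO FT (2.98-fold, adjusted p = 1.78e-21).

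**Figure D1:**
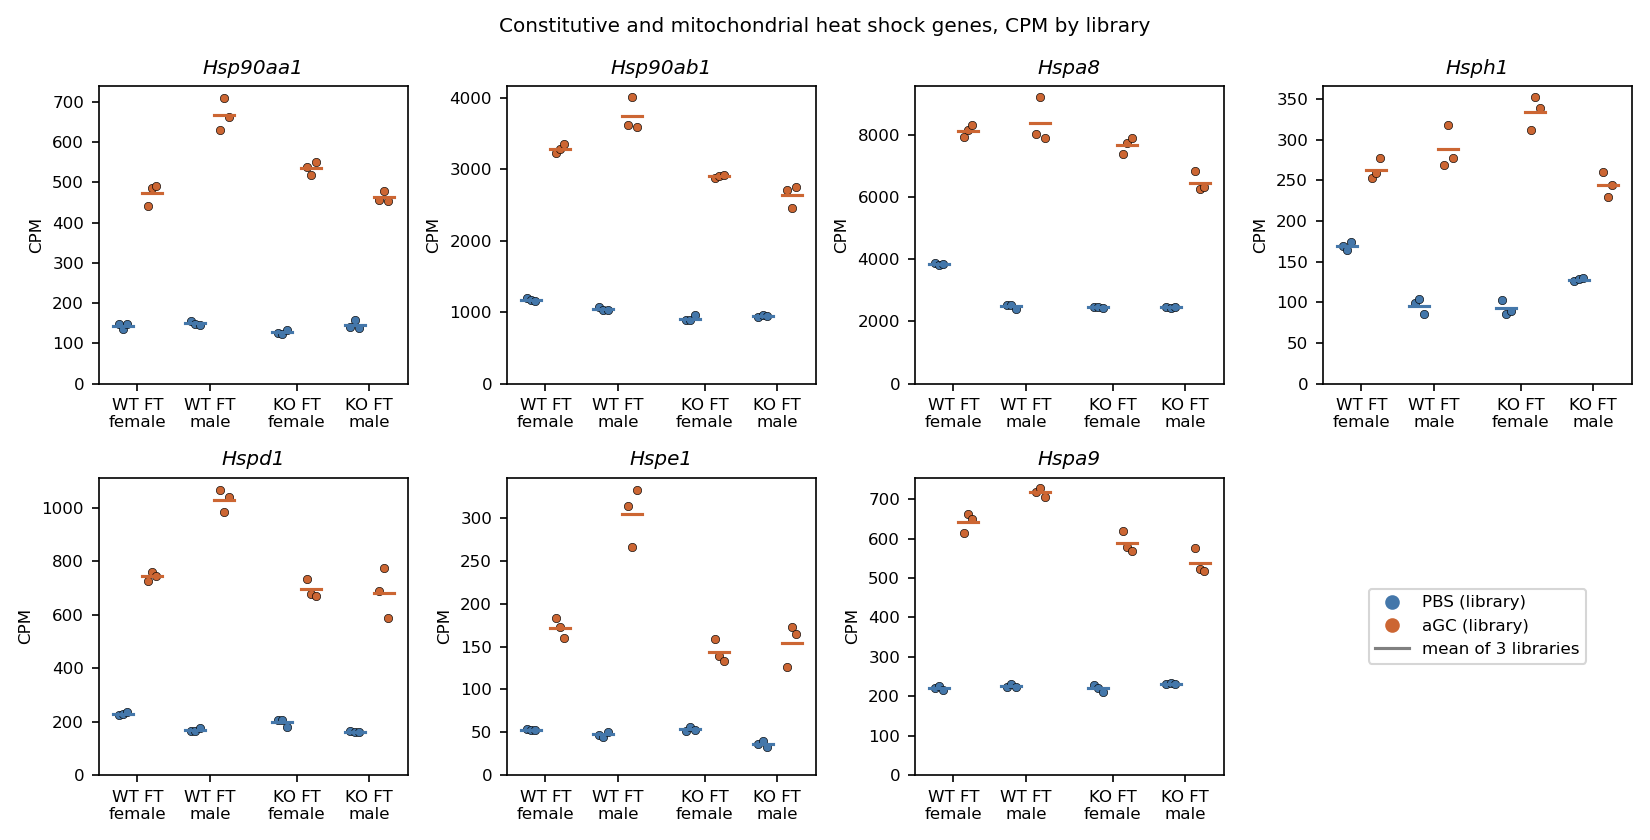
CPM of the 4 cytosolic constitutive and 3 mitochondrial heat shock genes in each of the 24 libraries (points; lines are means of 3), with FT and sex on the x axis and PBS in blue, aGC in orange. For all 7 genes every aGC library lies above every PBS library of the same FT. Hspa8, for example, runs from 2417 to 3871 CPM after PBS and from 6256 to 9251 CPM after aGC. How many of all tested genes separate in this way was not counted.

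Hspa8, which encodes the constitutive HSP70 of the cytosol (ENSMUSG00000015656.17, chromosome 9, 40800984 to 40810087, plus strand), stood after PBS at 3871, 3817 and 3838 CPM in WT FT females and at 2547, 2527 and 2417 CPM in WT FT males. In KO FT the PBS libraries held 2463, 2454 and 2441 CPM in females and 2470, 2440 and 2474 CPM in males. The WT FT females thus started above the other PBS groups. After aGC, Hspa8 reached 7943, 8159 and 8341 CPM in WT FT females, 8053, 9251 and 7927 CPM in WT FT males, 7414, 7740 and 7915 CPM in KO FT females and 6844, 6256 and 6325 CPM in KO FT males. Its rise was 1.42 ± 0.03 (log2, SE) in WT FT and 1.52 ± 0.03 in KO FT (adjusted p = 6.22e-21 and 4.24e-21). In WT FT females, the group with the high PBS level, the rise was 1.08 ± 0.05, against 1.75 ± 0.05 in the males of that FT.

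Hsp90aa1, the HSP90 alpha gene, which is the more inducible of the HSP90 pair (ENSMUSG00000021270.13, chromosome 12, 110690605 to 110702728, minus strand), ran from 123 to 158 CPM over the 12 PBS libraries. After aGC it gave 442, 485 and 491 CPM in WT FT females, 629, 709.9 and 661 CPM in WT FT males, 538, 518 and 549.6 CPM in KO FT females and 456, 477 and 453 CPM in KO FT males. The WT FT males were the highest group after aGC, without overlap with any other. The rise over the sexes was 1.94 ± 0.04 in WT FT (3.83-fold) and 1.87 ± 0.04 in KO FT (3.64-fold), with adjusted p = 4.74e-21 and 2.10e-20. Hsph1, the HSP110 gene, an exchange factor for HSP70 (ENSMUSG00000029657.15, chromosome 5, 149614287 to 149636376, minus strand), ran from 85.0 to 174 CPM after PBS and from 230.0 to 353 CPM after aGC. Its changes spread more between groups than those of the other cytosolic genes, from 0.64 ± 0.08 in WT FT females to 1.85 ± 0.08 in KO FT females, with 1.59 ± 0.08 in WT FT males and 0.93 ± 0.08 in KO FT males.

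The mitochondrial chaperonin genes rose as well. Hspd1, which encodes HSP60 (ENSMUSG00000025980.14, chromosome 1, 55077835 to 55088243, minus strand), stood after PBS at 223, 229 and 236 CPM in WT FT females, 163, 165 and 174 CPM in WT FT males, 206, 205 and 181 CPM in KO FT females and 164, 163 and 163 CPM in KO FT males. After aGC it reached 726, 762 and 744 CPM in WT FT females, 1069, 984 and 1040 CPM in WT FT males, 736, 678 and 671 CPM in KO FT females and 688, 774 and 588 CPM in KO FT males. The WT FT males stood above all other libraries, and the change there was 2.62 ± 0.07 (log2, SE), a 6.16-fold rise, the largest of the 7 after that of Hspe1. The averages were 2.16 ± 0.05 in WT FT and 1.94 ± 0.05 in KO FT (adjusted p = 1.06e-20 and 1.47e-19).

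Hspe1, the gene of the HSP10 lid, which lies head to head with Hspd1 (ENSMUSG00000073676.4, chromosome 1, 55088132 to 55091307, plus strand), ran from 33.3 to 55.9 CPM over the PBS libraries. After aGC it gave 183, 173 and 160 CPM in WT FT females, 314, 267 and 332 CPM in WT FT males, 159, 138 and 133 CPM in KO FT females and 126, 173 and 164 CPM in KO FT males. The WT FT males again stood apart, with a change of 2.68 ± 0.10 (6.42-fold). Over the sexes Hspe1 rose by 2.19 ± 0.07 in WT FT and by 1.76 ± 0.07 in KO FT (adjusted p = 5.13e-18 and 9.20e-16). Hspa9, the gene of mortalin, the mitochondrial HSP70 that pulls in imported proteins (ENSMUSG00000024359.10, chromosome 18, 34937414 to 34954357, minus strand), held a narrow range of 211 to 234 CPM over the 12 PBS libraries. After aGC it ran from 517 to 729 CPM, and it rose by 1.60 ± 0.03 in WT FT and 1.32 ± 0.03 in KO FT (adjusted p = 1.32e-21 and 8.29e-20).

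Counted together, 8 of the 10 genes passed the test for aGC in WT FT, all higher, where 68.4% of the 15953 tested genes passed (30.9% higher). In KO FT 10 of 10 passed, all higher, where 58.1% of all genes passed (28.1% higher). Within strata 9 of 10 passed in WT FT females (9 higher; 58.4% of all genes, 28.6% higher), WT FT males (7 higher and 2 lower; 66.6%), KO FT females (9 higher; 56.0%, 27.7% higher) and KO FT males (9 higher; 53.5%, 26.8% higher). The median change of all genes was -0.11 in WT FT and -0.03 in KO FT, and -0.26 and -0.06 when only library totals scaled the counts, where the 7 constitutive genes still rose by 0.96 to 2.04 in WT FT and 1.29 to 1.92 in KO FT. In these bulk samples more RNA per cell and more cells that hold it cannot be told apart. The 7 rose both where the CD8 genes were higher after aGC (females) and where they were lower (males). Between the CD8-low groups alone, which sets aGC males against PBS females, they rose by 0.77 to 2.53 in WT FT and 1.29 to 1.85 in KO FT. Sex and treatment cannot be told apart there, and the part of other cells in the rises was not tested. With the 3 libraries of each group summed to 1 profile and sex as a term, 6 of the 10 genes passed in either FT, all higher: Hsp90aa1, Hsp90ab1, Hspa8, Hspd1, Hspe1 and Hspa9. Of all 15953 genes 10.1% passed in that fit in WT FT and 2.07% in KO FT. Hsph1 kept its direction and missed the threshold there (adjusted p = 0.064 in WT FT and 0.0777 in KO FT, the highest over its alternatives, all others of which passed).

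**Figure D2:**
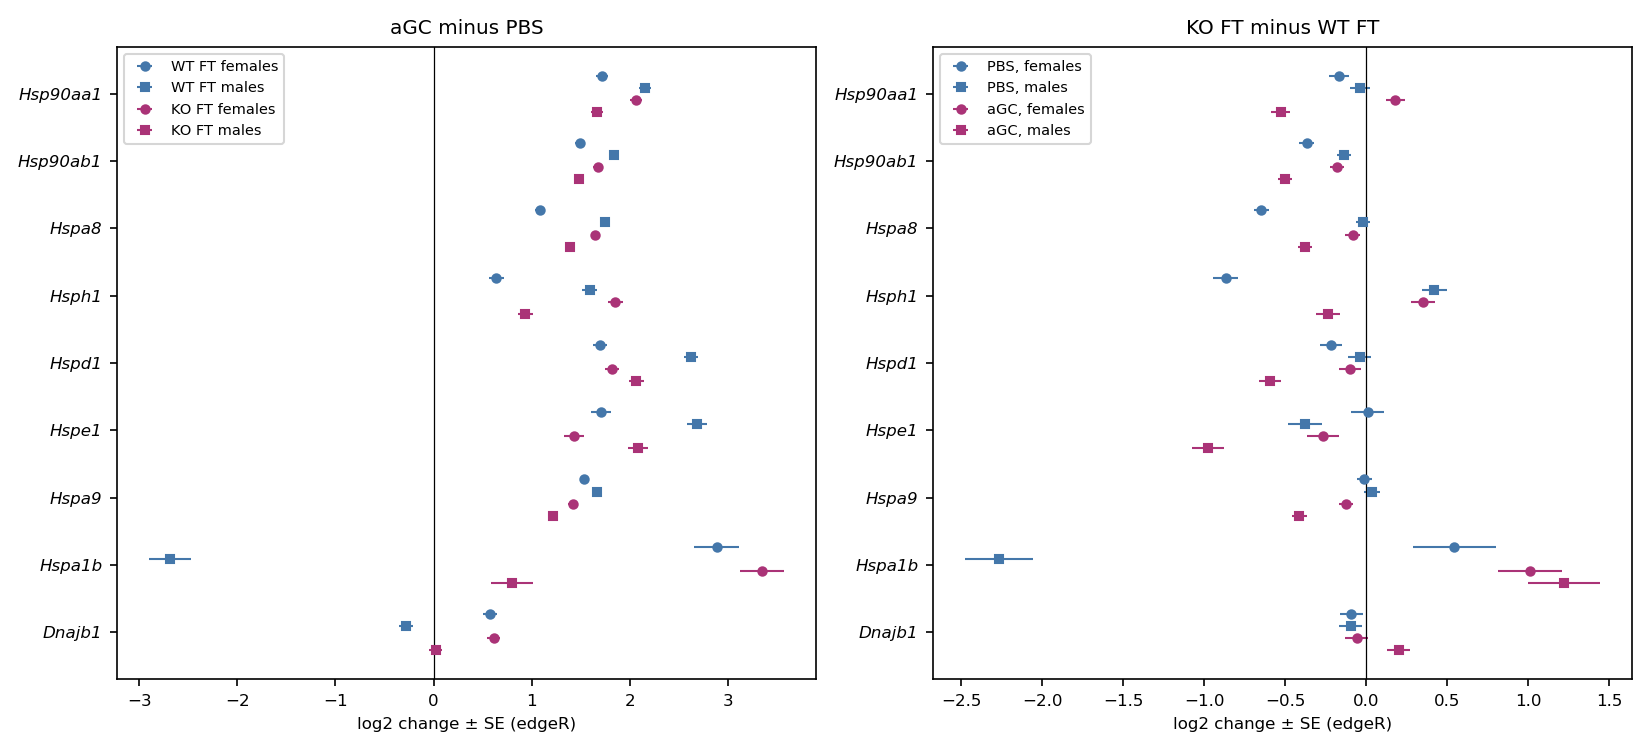
Log2 change with SE (edgeR, n = 3 libraries a group) of 9 heat shock genes for aGC minus PBS in each FT and sex (left) and for KO FT minus WT FT in each treatment and sex (right). Hspa1a is left out since its counts are low, with 0 in some libraries. On the left the 7 constitutive genes lie right of 0 in all 4 strata while Hspa1b runs from -2.69 in WT FT males to 3.35 in KO FT females; on the right the 7 lie left of 0 in males after aGC, from -0.24 to -0.98.

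The stress-induced genes did not follow the other 7 in every stratum. In WT FT males 2 of the 3 passed as lower (34.9% of all genes). In KO FT over the sexes all 3 passed as higher (28.1% of all genes). Hspa1a (ENSMUSG00000091971.3, chromosome 17, 34969190 to 34972156, minus strand) and Hspa1b (ENSMUSG00000090877.3, chromosome 17, 34956436 to 34959238, minus strand) are neighbouring copies of the inducible HSP70 gene. Of the 31-base words of the Hspa1a transcripts 63.8% also occur in Hspa1b, so the split of reads between them is uncertain. Hspa1a held 0 to 57 counts a library and 370 in all 24, and Hspa1b 12 to 343 counts a library and 2514 in all. Hspa1a was at 0 counts in all 3 PBS libraries of KO FT males, and no fold is given for it. It passed the test in KO FT males (adjusted p = 0.00446), with 12, 10 and 16 counts after aGC, in KO FT over the sexes (adjusted p = 0.00109), after PBS between the FTs (adjusted p = 0.0351) and for the difference in response (adjusted p = 0.0317), and in no other comparison.

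Summed, Hspa1a and Hspa1b stood after PBS at 2.70, 2.01 and 2.64 CPM in WT FT females and at 15.9, 13.6 and 15.3 CPM in WT FT males. After aGC the sum was 8.91, 9.93 and 8.96 CPM in WT FT females and 2.29, 2.67 and 3.45 CPM in WT FT males. The order of treatments thus reversed between the sexes in WT FT. In KO FT the sum was 2.00, 1.66 and 2.29 CPM in PBS females, 3.02, 2.43 and 3.91 CPM in PBS males, 15.6, 17.8 and 17.5 CPM in aGC females and 5.69, 7.29 and 5.36 CPM in aGC males. The high groups were WT FT males after PBS and females of both FTs after aGC, 3 of the 4 groups with high CD8 genes. KO FT males after PBS also had high CD8 genes (393 to 396 CPM) but a low sum, and KO FT males after aGC had low CD8 genes (14.1 to 14.5 CPM) and an intermediate sum. For Hspa1b alone the aGC change was 2.88 ± 0.23 in WT FT females, -2.69 ± 0.22 in WT FT males, 3.35 ± 0.23 in KO FT females and 0.80 ± 0.22 in KO FT males, all past the threshold. The sum changed by 1.91, -2.41, 3.08 and 1.00 in the same order. Averaged over the sexes of WT FT, Hspa1b changed by 0.10 ± 0.16 (edgeR adjusted p = 0.590), and the sexes differed by -5.57 ± 0.32 in the response (males minus females). In KO FT its average change was 2.08 ± 0.16 (4.22-fold, adjusted p = 4.94e-11), and the sexes differed by -2.55 ± 0.31.

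Dnajb1, the J-domain partner of HSP70 and HSF1 target (ENSMUSG00000005483.10, chromosome 8, 83608193 to 83612653, plus strand), ran from 93.5 to 169 CPM over all 24 libraries. After PBS it stood at 114, 109 and 104 CPM in WT FT females, 119.9, 114 and 119 CPM in WT FT males, 93.5, 101 and 113 CPM in KO FT females and 115, 113 and 102 CPM in KO FT males. After aGC it stood at 168, 169 and 152 CPM in WT FT females, 95.1, 96.8 and 99.5 CPM in WT FT males, 156, 159.6 and 155 CPM in KO FT females and 101, 112 and 122 CPM in KO FT males. The females of both FTs were higher after aGC, the WT FT males were lower, and the KO FT males overlapped. The changes were 0.58 ± 0.07 and 0.61 ± 0.07 in WT FT and KO FT females (edgeR adjusted p = 2.10e-07 and 1.21e-07), -0.28 ± 0.07 in WT FT males (adjusted p = 0.00163) and 0.02 ± 0.07 in KO FT males (adjusted p = 0.836). Averaged over these sexes, Dnajb1 changed by 0.15 ± 0.05 in WT FT (adjusted p = 0.0107) and 0.32 ± 0.05 in KO FT (adjusted p = 9.40e-06). The WT FT average did not pass with library totals alone. Dnajb1 rose in females, where the CD8 genes rose. In males, where the CD8 genes fell, it fell in WT FT and did not pass in KO FT. The WT FT males after PBS had the highest CD8 sum (854 to 863 CPM), with Dnajb1 at 114 to 119.9 CPM, below the aGC females. Between the CD8-low groups alone, which sets aGC males against PBS females, its change was -0.17 in WT FT and 0.12 in KO FT. The part of CD8 T cells in its change was not tested.

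A list of 12 immediate-early genes, which also respond to tissue handling, was read beside these values. It summed to 2688 to 4800 CPM in the 4 CD8-high groups and to 2176 to 3000 CPM in the others, with overlap. In WT FT it was highest in males after PBS (4485 to 4800 CPM), followed by females after aGC (3315 to 3794 CPM). KO FT males after PBS also had a high sum (3736 to 4364 CPM), though their Hspa1a and Hspa1b sum was low. In KO FT females the list overlapped between aGC (2688 to 3240 CPM) and PBS (2806 to 3000 CPM). In WT FT 9 of the 12 rose and 1 fell in females (28.6% of all genes rose and 29.8% fell) while 2 rose and 8 fell in males (31.7% and 34.9%). In KO FT 6 rose and 2 fell in females (27.7% and 28.3%) while 3 rose and 6 fell in males (26.8% and 26.7%). Its part in the values of Hspa1b and Dnajb1 was not tested.

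**Figure D3:**
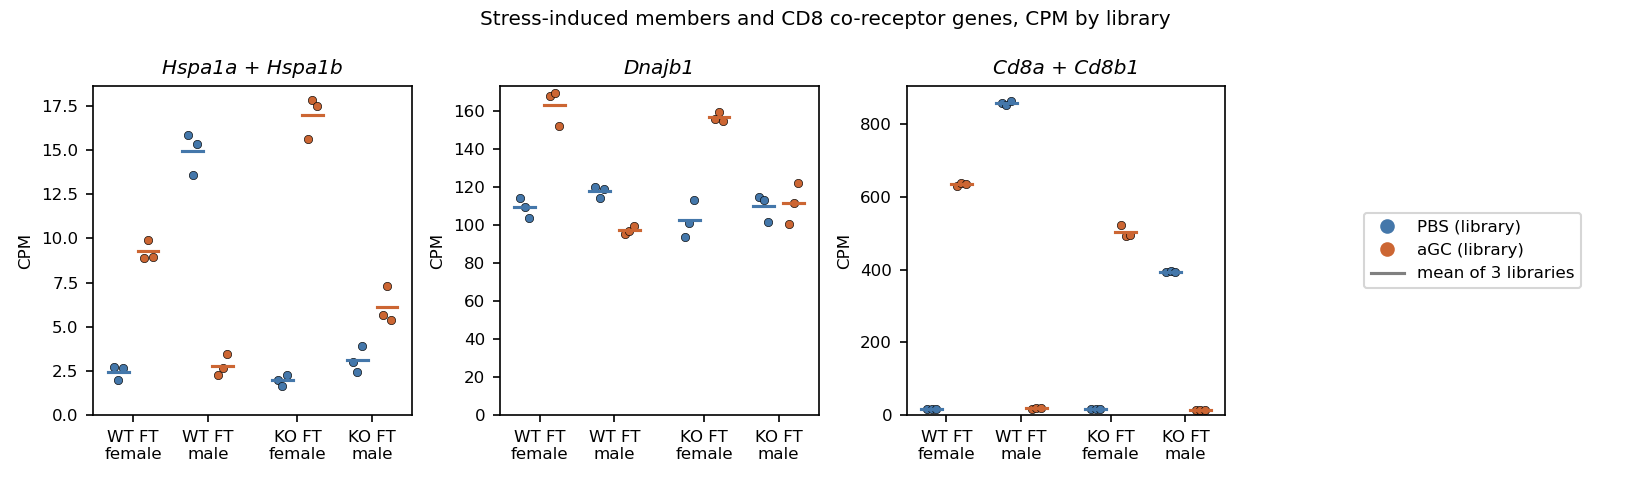
CPM by library (points; lines are means of 3) of Hspa1a and Hspa1b summed, of Dnajb1, and of the CD8 co-receptor genes Cd8a and Cd8b1 summed, with FT and sex on the x axis and PBS in blue, aGC in orange. The Hspa1a and Hspa1b sum is highest in KO FT females after aGC (15.6 to 17.8 CPM) and WT FT males after PBS (13.6 to 15.9 CPM); the CD8 sum is high in males after PBS and females after aGC.

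Ratios of 2 genes within a library do not depend on how libraries are scaled. The log2 ratio of Dnajb1 to Hspa8 fell from -4.77 ± 0.40 (SD, n = 6 libraries) after PBS to -6.04 ± 0.45 after aGC in WT FT and from -4.54 ± 0.12 to -5.74 ± 0.19 in KO FT, with no overlap in either. The differences of -1.27 and -1.20 passed an exact permutation test (both p = 0.00217, the smallest that 6 against 6 allows, adjusted p = 0.0115 over 16 tests). In WT FT males, for example, Hspa8 held 21.2 times the counts of Dnajb1 after PBS and 86.4 times after aGC. Hsp90aa1 gained on Hsp90ab1: the log2 ratio went from -2.77 ± 0.09 to -2.48 ± 0.09 in KO FT without overlap (exact permutation p = 0.00217, adjusted p = 0.0115). In WT FT it went from -2.92 ± 0.13 to -2.65 ± 0.18, which missed the threshold (exact permutation p = 0.0195, adjusted p = 0.0779). The ratio of Hspd1 to Hspe1, the genes of the shared window, was 1.97 ± 0.17 after PBS and 1.94 ± 0.22 after aGC in WT FT (exact permutation p = 0.784) and 2.03 ± 0.19 and 2.21 ± 0.21 in KO FT (exact permutation p = 0.143). The ratio of the Hspa1a and Hspa1b sum to Hspa8 passed in none of its 4 comparisons, with exact permutation p from 0.039 to 0.191, but these pool sexes that moved in opposite directions. Its means went from -10.61 to -9.78 in WT FT females, from -7.39 to -11.55 in WT FT males and from -10.27 to -8.82 in KO FT females, each without overlap, and from -9.63 to -10.05 with overlap in KO FT males.

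**Figure D4:**
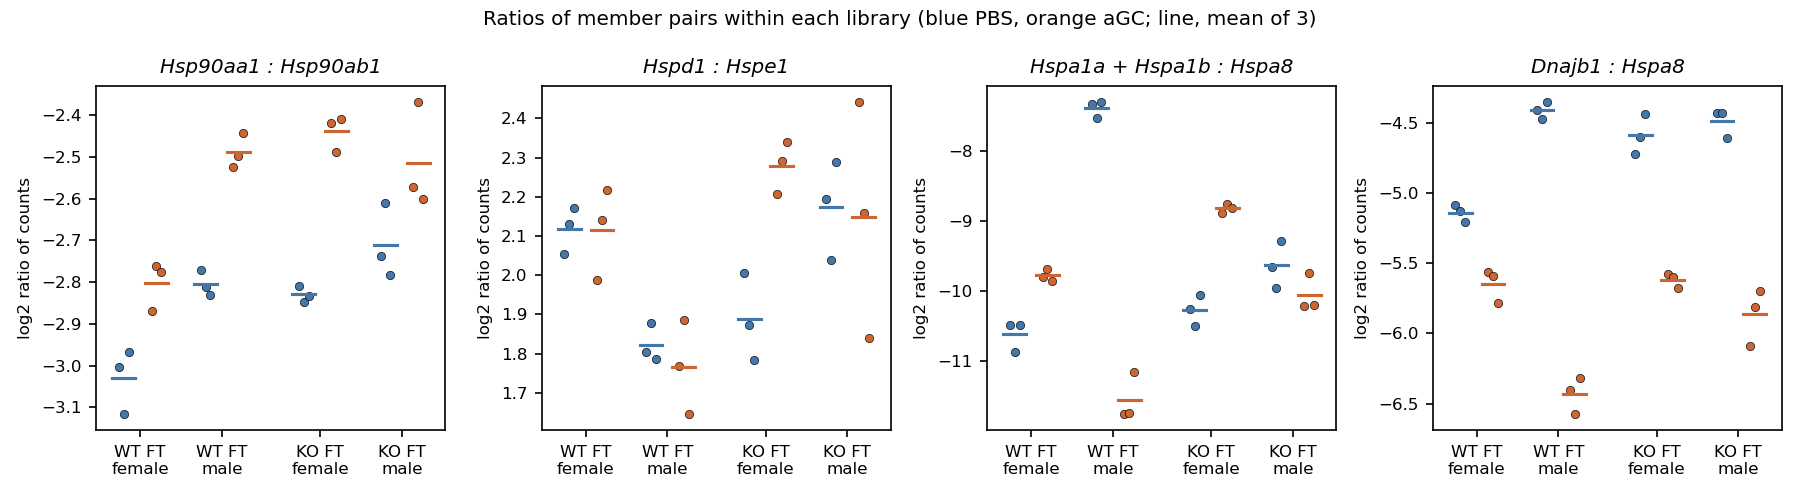
Log2 ratio of counts of 4 gene pairs within each library (points; lines are means of 3), by FT and sex, PBS in blue and aGC in orange. The ratio of Dnajb1 to Hspa8 is lower in every aGC library than in every PBS library of the same FT (means of -6.04 against -4.77 in WT FT), while Hspd1 to Hspe1 overlaps between treatments.

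The question of the transplant was read from KO FT against WT FT. After aGC, 6 of the 10 genes were lower in KO FT and 1 (Hspa1b) higher, where 51.9% of all genes passed. Hspe1 fell by 0.62 ± 0.07 on the log2 scale (KO FT minus WT FT, SE), Hspd1 by 0.35 ± 0.05, Hsp90ab1 by 0.34 ± 0.03, Hspa9 by 0.27 ± 0.03, Hspa8 by 0.23 ± 0.03 and Hsp90aa1 by 0.17 ± 0.04 (highest adjusted p = 0.0012). For Hsp90ab1 and Hspa8 the 6 libraries of KO FT did not overlap with the 6 of WT FT (2464 to 2920 against 3227 to 4012 CPM, and 6256 to 7915 against 7927 to 9251 CPM). The share of all genes without overlap between the FTs was not counted. Hspa1b was higher by 1.11 ± 0.15, and Hsph1 (0.06 ± 0.05, adjusted p = 0.400) and Dnajb1 (0.07 ± 0.05, adjusted p = 0.248) did not pass. With library totals alone the median of all genes moved from 0.00 to 0.13, the calls over all genes from 4049 higher and 4229 lower to 5431 higher and 2836 lower, and Hsp90aa1 (-0.05) lost its call, while Hsph1 (0.18) and Dnajb1 (0.20) passed as higher.

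In males after aGC all 7 constitutive genes were lower in KO FT, from -0.24 ± 0.08 for Hsph1 to -0.98 ± 0.10 for Hspe1, 9 of 10 genes passed with Hspa1b and Dnajb1 higher, and 46.5% of all genes passed. In females 6 of 10 passed (43.4% of all genes): Hsp90ab1 (-0.18 ± 0.04), Hspe1 (-0.27 ± 0.10) and Hspa9 (-0.13 ± 0.05) were lower while Hsp90aa1 (0.18 ± 0.06), Hsph1 (0.35 ± 0.08) and Hspa1b (1.01 ± 0.20) were higher. In females after aGC the count fell to 3 without KO FT replicate 3, when Hsp90aa1, Hspe1 and Hspa9 lost their calls, and to 3 with library totals. Both female groups had high CD8 genes (494 to 640 CPM), and both male groups low ones (14.1 to 19.8 CPM). Whether KO FT minus WT FT differed between the sexes was not tested.

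After PBS, 5 of 10 genes were lower in KO FT, where 29.4% of all genes passed (14.8% lower): Hspa8 (-0.33 ± 0.03), Hsp90ab1 (-0.25 ± 0.03), Hsph1 (-0.22 ± 0.05), Hspa1b (-0.86 ± 0.17) and Hspa1a, whose counts are low. Hsp90ab1 did not overlap between FTs (886 to 966 against 1029 to 1196 CPM). Hspd1, Hspe1, Hsp90aa1, Hspa9 and Dnajb1 did not pass (-0.18 to 0.01). The strata differed. In females 5 genes were lower (29.8% of all genes passed, 14.9% lower), led by Hsph1 (-0.87 ± 0.08) and Hspa8 (-0.65 ± 0.05), and 3 passed without WT FT replicate 3, when Hsp90aa1 and Hspd1 lost their calls. In males 4 passed (42.5% of all genes): Hsp90ab1 (-0.14 ± 0.04), Hspe1 (-0.38 ± 0.11) and Hspa1b (-2.27 ± 0.21) were lower and Hsph1 (0.42 ± 0.08) higher. The males compared there differed in the CD8 genes too, at 854 to 863 CPM in WT FT and 393 to 396 CPM in KO FT.

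The response to aGC itself differed between the FTs for 6 of the 10 genes, where 44.5% of all genes passed. The response was smaller in KO FT for Hspe1 (-0.44 ± 0.10, KO FT minus WT FT), Hspa9 (-0.28 ± 0.05) and Hspd1 (-0.22 ± 0.07), the 3 mitochondrial genes, and larger for Hsph1 (0.28 ± 0.08), Hspa1b (1.98 ± 0.22) and Hspa1a, whose counts are low. It missed the threshold for Hsp90aa1 (-0.07), Hsp90ab1 (-0.09), Hspa8 (0.10) and Dnajb1 (0.17). Hspd1 lost its call with library totals (-0.09, edgeR adjusted p = 0.336) and with every gene that had a count (-0.16, adjusted p = 0.0555), while Hspa8 and Dnajb1 passed as larger in both. These differences average the sexes. In females the aGC change of Hsph1 was 0.64 in WT FT and 1.85 in KO FT, and in males 1.59 and 0.93. That of Hspd1 was 1.70 and 1.82 in females, and 2.62 and 2.07 in males. Hspe1, Hspa9 and Hspa1b kept the direction of their difference in both sexes, but for Hspa1b the size differed. Its aGC change was 2.88 in WT FT and 3.35 in KO FT in females, and -2.69 and 0.80 in males. Between the sexes the response differed for 8 of the 10 genes in WT FT (47.7% of all genes) and for 9 in KO FT (46.7%). In males of WT FT it was larger than in females for Hsp90aa1, Hsp90ab1, Hspa8, Hsph1, Hspd1 and Hspe1 (by 0.35 to 0.98), whereas in KO FT it was smaller in males for Hsp90aa1, Hsp90ab1, Hspa8, Hsph1 and Hspa9 (by -0.20 to -0.92) and larger for Hspd1 (0.25) and Hspe1 (0.66). In KO FT the calls of Hsp90ab1 (-0.09, edgeR adjusted p = 0.543), Hspa8 (-0.15, adjusted p = 0.119) and Hspa9 (-0.10, adjusted p = 0.625) were lost with every gene that had a count, and that of Hspd1 (0.20, adjusted p = 0.136) with library totals. With 1 profile per group, none of the 10 genes passed for the transplant after PBS, after aGC or for the difference in response in edgeR's quasi-likelihood test, with 0, 1 and 0 of them at an unadjusted p under 0.05, where the fits on 24 libraries called 5, 7 and 6. That fit called 0 of all 15953 genes (0.00%) in each of these 3 comparisons, so its count of 0 is not particular to the 10. The common coefficient of variation was 0.108 between the libraries of a group. It was 0.424 in the fit on profiles, which has 3 residual degrees of freedom and no replicate profiles. That value holds any difference between the sexes in the effects of treatment and transplant, such as the opposite CD8 changes.

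The partners of these chaperones mostly rose with them after aGC. Of 24 cytosolic co-chaperone genes 20 rose and 3 fell in WT FT and 18 rose and 2 fell in KO FT, with median changes of 0.67 and 0.71 against -0.11 and -0.03 over all genes. Of all tested genes 30.9% rose and 37.5% fell in WT FT, and 28.1% rose and 30.1% fell in KO FT. Stip1, which encodes the HOP protein that links HSP70 to HSP90, rose by 1.22 in both FTs, from means of 192 to 286 CPM after PBS to 444 to 561 CPM after aGC. Fkbp4, an immunophilin partner of HSP90, rose by 1.33 and 1.07. Dnajc7, another J-domain gene, fell by 0.24 and 0.21, Bag3, an HSF1 target and HSP70 co-chaperone, fell by 0.44 in WT FT, and Stub1, the ubiquitin ligase CHIP, fell by 0.17 in KO FT. Bag3 rose in KO FT by 1.02, but its group means were 2.26 to 8.59 CPM. After aGC 16 of the 24 were lower and 4 higher in KO FT than in WT FT, where 26.5% of all genes were lower and 25.4% higher. With library totals alone 12 were lower and 7 higher, where 2836 of all 15953 genes were lower and 5431 higher.

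Of 15 genes for mitochondrial chaperone partners and proteases, 11 rose and 1 fell in WT FT (30.9% and 37.5% of all genes). In KO FT 10 rose and 3 fell (28.1% and 30.1%). The medians were 0.53 and 0.23. The strongest calls were Clpp (1.00), a matrix protease, and Grpel1 (0.96), the exchange factor of mortalin, in WT FT, and Trap1 (0.63), the mitochondrial HSP90, and Lonp1 (0.56), a matrix protease, in KO FT. Spg7, a subunit of an inner membrane protease, fell by 0.51 and 0.33, and Hscb, a J-domain protein of iron-sulfur assembly, fell by 0.38 in KO FT. After aGC 11 of the 15 were lower in KO FT than in WT FT and 0 higher, where 26.5% of all genes were lower and 25.4% higher. Scaled by library totals alone, 8 were lower and 1 higher, where 2836 of all 15953 genes were lower and 5431 higher. Of 8 genes for heat shock factors and small heat shock proteins 5 were tested: Hsf1 rose by 0.13 in WT FT, from means of 146 and 148 CPM to 166 and 156 CPM, and Hsbp1, which encodes an inhibitor of HSF1, fell by 0.26 in KO FT. Hspb1, the small heat shock protein HSP27, was at means of 0 to 0.497 CPM and did not pass the filter.

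Across the 24 libraries the 7 constitutive genes were correlated in log2 CPM at Pearson r = 0.840 to 0.990 (median 0.963, 21 pairs of genes), a description of libraries that share treatment groups. Dnajb1 was correlated with the 7 at 0.25 to 0.429 and Hspa1b at 0.206 to 0.373. Among 8482 genes with a mean of at least 10 CPM, those most like Hsp90ab1 over the 24 libraries were Cct3 (r = 0.995), a subunit of the cytosolic chaperonin, Prep (0.993) and Litaf (0.993). Those most like Hspd1 were Etf1 (0.992), a translation release factor, Eif1a (0.992), a translation initiation factor, and Mrps6 (0.991), a protein of the mitochondrial ribosome. Hspa1b was matched less closely, by Tnfsf8 (0.880), Mettl15 (0.870) and Net1 (0.858). Of the 31-base words of Hsp90aa1, Hspd1 and Hspa8 transcripts, 51.5, 53.1 and 44.8% also occur in other genes, mostly processed copies. The copy sharing the most words held 0.821, 0.268 and 0.0769% as many counts.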

How the data were processed

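Per the labels' protocols, a single-cell RNA kit and Nextera XT were used, and Nextera XT does not mark strand. The deposited values are estimated counts per gene, in whole numbers. Per the submitters' processing notes the authors used kallisto and the build GRCm38 (mm10). The sources used here do not give its version, the annotation or the step from transcripts to genes. Ensembl identifiers were matched to GENCODE M21 without their version: 55154 of 55335 had a symbol and 181 had none. edgeR's filterByExpr (10 counts as the minimum, 15 in total) left 15953 genes. The quasi-likelihood test of edgeR, with TMM scaling, was fitted to 24 libraries with 8 group means and 16 residual degrees of freedom. Contrasts weighted the sexes equally. P-values are two-sided and adjusted by Benjamini-Hochberg over all tested genes (threshold 0.05), and SE is the change over the root of its F. The fit was tested on simulated data.

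Ratios within libraries used counts plus 0.5 and exact two-sided permutation tests of 6 against 6 libraries (924 splits), adjusted over 16 tests. Alternatives were DESeq2, its size factors in edgeR, library totals, no filter beyond a count, a replicate block, 1 summed profile per group, Hspa1a and Hspa1b summed, groups with Cd8a plus Cd8b1 under 50 CPM alone, and each library left out in turn. The text names all 10 genes. From the lists of co-chaperones, mitochondrial partners and heat shock factors it names the 2 genes with the lowest adjusted p in each direction. These were taken for aGC in WT FT and in KO FT, with a group mean of at least 5 CPM. Genes of the immediate-early list are not named, and that list is described by sums and counts only. It also names the 3 genes most alike to Hsp90ab1, Hspd1 and Hspa1b, and Bag3 in KO FT and Hspb1, which were chosen after their values were seen. The 10 genes, the other lists and the tests were chosen with earlier results of these data known. Of 92 other list entries 83 were tested. Same-numbered libraries did not deviate together (r from -0.06 to 0.09 over 84 pairs), so the replicate numbers were not taken to pair them. Promoter sequences are from RefSeq (GRCm38.p6). The software was edgeR 4.0.16, DESeq2 1.42.0 and limma 3.58.1 under R 4.3.3, and numpy 2.4.6, pandas 2.3.3 and matplotlib 3.10.9 under Python 3.11.15. Of the naive T cell and B cell markers 1 each is not reported here.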

Additional observations from a re-analysis of the deposited data

Results flagged for a closer look

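The response to aGC differed between groups for several of the heat shock genes, by edgeR's quasi-likelihood test of the difference itself (adjusted over all 15953 genes). Between the FTs (KO FT minus WT FT, log2) the difference was -0.44 for Hspe1, -0.28 for Hspa9, -0.22 for Hspd1, 0.28 for Hsph1 and 1.98 for Hspa1b. Hspa1a passed too (adjusted p = 0.0317), with 0 to 57 counts a library. These differences average the sexes. The response of Hsph1 was larger in KO FT in females (1.85 against 0.64) and smaller in males (0.93 against 1.59). For Hspd1 it was 1.82 against 1.70 in females and 2.07 against 2.62 in males. For Hspa1b it was 3.35 against 2.88 in females and 0.80 against -2.69 in males.

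Between the sexes of WT FT (males minus females) the response differed by 0.44 for Hsp90aa1, 0.35 for Hsp90ab1, 0.67 for Hspa8, 0.95 for Hsph1, 0.92 for Hspd1 and 0.98 for Hspe1, all larger in males. It differed by -5.57 for Hspa1b and -0.85 for Dnajb1, both of which rose in females and fell in males. Of the 10 genes 8 passed, where 47.7% of all genes passed.

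Between the sexes of KO FT it differed by -0.40 for Hsp90aa1, -0.20 for Hsp90ab1, -0.25 for Hspa8, -0.92 for Hsph1, -0.20 for Hspa9, -2.55 for Hspa1b and -0.59 for Dnajb1, all smaller in males, and by 0.25 for Hspd1 and 0.66 for Hspe1. Of the 10 genes 9 passed, where 46.7% of all genes passed. With every gene that had a count Hsp90ab1 (-0.09), Hspa8 (-0.15) and Hspa9 (-0.10) lost their calls in KO FT, and with library totals Hspd1 (0.20) did. For Hsp90aa1 and Hsph1 the response was larger in males of WT FT and smaller in males of KO FT under both of these alternatives, past the threshold each time. The sexes of an FT also differed in the direction in which Cd8a and Cd8b1 moved with aGC, and neither the part of CD8 T cells in these values nor an exchange of treatment labels was tested.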

How the results depend on the processing

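The rises of the 7 constitutive genes after aGC kept their direction and passed in both FTs under every alternative run, except that Hsph1 missed the threshold with 1 profile per group. That fit called 6 of the 10 genes in KO FT (2.07% of all genes) and 6 in WT FT (10.1%), and 0 for the transplant after PBS, after aGC and for the difference in response, each with 0 of all 15953 genes. With library totals KO FT against WT FT in females after aGC gave 3 genes, and signs turned for Dnajb1 in KO FT males after aGC (-0.034), Hspa1b for aGC in WT FT (-0.049), Hspe1 and Hspa8 for the transplant after PBS in females (-0.0046) and males (0.0030), Hspa8 (0.047), Hspd1 (0.033), Hspa9 (0.0058) and Dnajb1 (0.073) for the transplant in females after aGC, and Hsp90aa1 (0.053) and Hsp90ab1 (0.034) for the difference in response. Hspa1b for aGC in WT FT also turned with 1 profile per group (-0.56) and when summed with Hspa1a (-0.25), as did the sum after PBS in females (-0.30). Between CD8-low groups alone, which differ in sex for aGC, Dnajb1 turned for aGC in WT FT (-0.17), Hspe1 (0.0097), Hspa9 (-0.012) and Hspa1b (0.54) for the transplant after PBS, and Hsph1 after aGC (-0.24). With every gene that had a count Hspa9 turned after PBS over the sexes (-0.0095) and in males (-0.015), and in females it turned with DESeq2 (0.0019) and its size factors (0.0021).

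With each library left out in turn, KO FT against WT FT gave 3 to 5 genes in females after PBS and 3 to 7 in females after aGC, and no other count moved by over 1.5 times. The ratio Hsp90aa1:Hsp90ab1 for aGC in WT FT ran from 0.23 to 0.32 and passed without WT FT aGC female replicate 1, and Hspd1:Hspe1 there ran from -0.086 to 0.029. Dnajb1 in KO FT males after aGC ran from -0.051 to 0.091. For the transplant after PBS Hspa9 ran from -0.0052 to 0.026, in females Hspa9 from -0.040 to 0.018 and Hspe1 from -0.024 to 0.033, and in males Hsp90aa1 from -0.11 to 0.0038. Some calls were lost. After PBS in females Hsp90aa1 missed the threshold without WT FT replicate 1 or 3 or KO FT replicate 1 or 2 (-0.14 to -0.16) and Hspd1 without replicate 3 of either (-0.20 and -0.16). In males after PBS Hsp90ab1 missed it without KO FT replicate 1 (-0.13). After aGC in females it was missed by Hsp90aa1 without WT FT replicate 1 or KO FT replicate 3 (0.13 and 0.15), by Hspe1 without WT FT replicate 1 or 2 or KO FT replicate 2 or 3 (-0.22 to -0.26) and by Hspa9 without replicate 2 or 3 of either (-0.10 to -0.12). In males after aGC it was missed by Hsph1 without WT FT replicate 2 (-0.16) and by Dnajb1 without any WT FT replicate or KO FT replicate 2 or 3 (0.12 to 0.20). For the difference in response between the sexes of KO FT, Hspd1 missed it when any 1 of 12 libraries was left out (0.13 to 0.26) and Hspa9 without PBS female replicate 3 (-0.17). In 23 cases a call was gained, in 9 of them for Hspd1 after PBS (-0.13 to -0.15).

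Fitted with a replicate block, aGC called 8 of the 10 genes in WT FT and 10 in KO FT, as without it, and no count of the 10 genes changed. Libraries with the fewest counts limit Hspa1a, which ran from 0 to 2.62 CPM where the limit was 0.081 to 0.307 CPM.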
